A study of Mus musculus with 44 samples.

Results

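Chromatin accessibility was compared between Sox2-KO and Ctrl inner cell masses (ICMs) of early mouse blastocysts at E3.75, by ATAC-seq, in which the Tn5 transposase inserts sequencing adapters into open DNA. The comparison uses 8 of the 44 libraries of the series, 4 KO and 4 Ctrl, chosen by their labels, and all 152393 peaks, each a window of 200 bp. Heterozygous Sox2 +/EGFP males were crossed with Sox2 flox/flox; Zp3-Cre females, and Zp3-Cre deletes the floxed allele in the oocyte. Ctrl embryos were therefore maternal KO embryos with a paternal wild-type Sox2 allele and no EGFP, and KO embryos were maternal-zygotic KO embryos that carried the EGFP-linked mutant allele from the father. Every Ctrl embryo thus lacked the maternal Sox2 copy, and no wild-type embryo was among these libraries. Libraries of a Pou5f1 line, read below for comparison, came from Pou5f1 +/mKO2 males and Pou5f1 flox/flox females with Zp3-Cre. Ctrl embryos of that line were likewise maternal Pou5f1-KO embryos, and its KO embryos were maternal-zygotic Pou5f1-KO. The EGFP is driven by a mouse PGK promoter placed in the Sox2 3′ UTR of the mutant allele, and embryos were sorted under the microscope by its fluorescence. All embryos of both genotypes, labelled B6C3F1, were flushed from superovulated females at E2.5 and cultured with 1 μM of the MEK inhibitor PD0325901, which holds back primitive endoderm (PE). The trophectoderm (TE) was then killed by immunosurgery, and 20 to 40 ICMs were pooled for each library, so that a library is a pool of embryos and not a single embryo.

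Sox2 is a transcription factor whose HMG box binds the minor groove of DNA and bends it. In pluripotent cells it binds beside Oct4 (encoded by Pou5f1) at a composite OCT-SOX site, in which a SOX half-site stands next to an octamer half-site, and the pair can open closed chromatin. In the mouse blastocyst Sox2 is switched on in the ICM and not in the TE, and embryos without it fail shortly after implantation because the epiblast (EPI) is not maintained.

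The sequences of the peaks with the largest differences show what kind of DNA lost or gained signal. Printed first are 6 of the 10 peaks with the largest decreases in KO, then 2 of those with the largest increases, and last the enhancer downstream of Utf1, a chromatin-associated gene of the ICM and a classic target of Oct4 and Sox2. All are on the plus strand of mm10 and were read from the RefSeq copy of the GRCm38 genome. Capitals mark the best match to an OCT-SOX word, which is CATTGT or CTTTGT, then 1 free base, then ATGCAAAT, searched on both strands with at most 3 mismatches. In the Cntn5 peak, which has no such match, capitals mark a SOX word (CCATTGTT or CCTTTGTT, at most 1 mismatch), and in the Dchs2 peak an OCT word (ATGCAAAT, at most 1 mismatch). The Cyp4a31 and Cpn2 peaks hold none of these words.
Cntn5 peak, chr9:11107331-11107530: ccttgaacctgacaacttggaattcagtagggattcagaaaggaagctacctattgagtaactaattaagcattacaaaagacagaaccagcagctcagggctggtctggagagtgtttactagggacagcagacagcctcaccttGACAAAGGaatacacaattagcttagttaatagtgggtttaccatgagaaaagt
Cd34 peak, chr1:195001187-195001386: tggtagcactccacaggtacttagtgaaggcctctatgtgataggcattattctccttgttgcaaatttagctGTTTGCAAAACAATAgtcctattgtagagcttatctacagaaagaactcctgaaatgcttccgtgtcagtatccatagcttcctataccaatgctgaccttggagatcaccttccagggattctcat
Cyp4a31 peak, chr4:115558316-115558515: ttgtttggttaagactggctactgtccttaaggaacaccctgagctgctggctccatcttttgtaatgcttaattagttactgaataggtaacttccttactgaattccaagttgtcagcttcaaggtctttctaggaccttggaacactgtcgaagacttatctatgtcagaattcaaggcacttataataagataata
Mrpl42 peak, chr10:95461263-95461462: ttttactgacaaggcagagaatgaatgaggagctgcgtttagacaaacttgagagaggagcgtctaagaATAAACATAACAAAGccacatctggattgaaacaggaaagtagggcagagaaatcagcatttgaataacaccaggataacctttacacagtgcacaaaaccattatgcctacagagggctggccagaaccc
Pot1b peak, chr17:55717747-55717946: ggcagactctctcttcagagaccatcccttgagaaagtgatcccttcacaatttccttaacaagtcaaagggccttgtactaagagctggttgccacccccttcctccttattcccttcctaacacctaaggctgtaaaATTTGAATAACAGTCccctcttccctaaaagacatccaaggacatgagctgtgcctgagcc
Rapgef5 peak, chr12:117261175-117261374: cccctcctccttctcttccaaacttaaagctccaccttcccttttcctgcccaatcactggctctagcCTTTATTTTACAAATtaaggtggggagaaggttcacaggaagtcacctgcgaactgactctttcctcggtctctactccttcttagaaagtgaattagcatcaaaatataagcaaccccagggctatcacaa
Cpn2 peak, chr16:30226003-30226202: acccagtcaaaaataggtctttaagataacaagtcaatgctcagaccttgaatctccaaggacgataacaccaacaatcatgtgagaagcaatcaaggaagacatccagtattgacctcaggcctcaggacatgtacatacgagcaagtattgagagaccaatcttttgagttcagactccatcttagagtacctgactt
Dchs2 peak, chr3:83243974-83244173: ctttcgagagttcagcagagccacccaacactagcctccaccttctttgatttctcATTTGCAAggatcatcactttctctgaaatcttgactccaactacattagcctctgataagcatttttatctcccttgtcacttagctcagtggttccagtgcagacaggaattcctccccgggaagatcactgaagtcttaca
Utf1 peak, chr7:139945620-139945819: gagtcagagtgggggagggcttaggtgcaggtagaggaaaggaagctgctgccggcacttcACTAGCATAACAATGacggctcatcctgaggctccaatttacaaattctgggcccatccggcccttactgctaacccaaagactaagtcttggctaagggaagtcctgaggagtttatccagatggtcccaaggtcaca

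A match is a run of letters and not a measured binding site. Of these 7 losing peaks, the Utf1 enhancer, 1930 bp downstream of the Utf1 start site, has the closest match, with 2 mismatches on the minus strand. The Cd34, Mrpl42, Pot1b and Rapgef5 peaks each have 3. Neither of the 2 gaining peaks has a match with 3 or fewer.

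The values are rlog values, that is, read counts on a log2 scale with the low counts shrunken, so that read depth is unknown here and differences are log2 differences. The rlog medians of the 8 libraries ran from 2.40 to 2.59. Libraries correlated with the others of their group at a mean of 0.79 to 0.84, and the lowest means were those of the KO and Ctrl libraries numbered 4. The labels do not say whether pools of a group came from separate matings, so p-values measure only the spread between these pools. ICM identity was checked at the highest peak within 2 kb of each marker's start site. All 14 EPI and ICM markers had one, with a median of 5.05 in Ctrl against 2.46 over all peaks. All 26 TE markers and all 20 PE markers also had one, with medians of 4.29 and 3.83, so open start sites do not separate the lineages. The mean over the TE marker peaks was 4.0 to 4.48 in the Ctrl libraries and 4.16 to 4.64 in the KO libraries, and over the PE marker peaks 3.48 to 3.90 and 3.48 to 3.97. The ranges overlapped, and no TE or PE marker peak of this kind was called. Between libraries of the same number, which the labels do not say were paired, the TE mean was higher in KO in all 4 and the PE mean in 1 of 4. Over the EPI and ICM marker peaks the Ctrl libraries had 4.72 to 5.04 and the KO libraries 4.36 to 4.68, with no overlap and with 1 of the 14 peaks, that of Utf1, decreased. The differences at the 14 peaks ran from -2.12, at Utf1, to 0.85, with a median of -0.28. The list also holds Sox2, the targeted gene. Whether the gap between the means holds without Utf1 and Sox2 was not tested. The part of other cell types in the differences below was not tested, and in a pool of ICMs fewer cells of a type and less open chromatin per cell cannot be told apart.

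At the targeted gene, the peak 480 bp upstream of the Sox2 start site (chr3:34649826-34650025, in an intron of the overlapping transcript Sox2ot) lost signal in KO. Its rlog values were 2.74, 2.11, 2.62 and 1.96 in Ctrl libraries 1 to 4 and 0.79, 0.54, 0.74 and 1.19 in KO libraries 1 to 4. All KO values were below all Ctrl values, and the log2 difference was -1.54 ± 0.40 (SE; limma, adjusted p = 0.0127). The peak in the coding exon had 3.81, 3.43, 3.10 and 1.95 in Ctrl and 1.91, 2.02, 2.77 and 1.71 in KO, so that Ctrl library 4 lay inside the KO range, and the difference of -0.97 was not called (adjusted p = 0.367). These 2 peaks lie between the loxP sites, the first of which is 1.9 kb upstream of the start site. Missing DNA and closed chromatin cannot be told apart there. The upstream call was lost without Ctrl library 1 (-1.42, adjusted p = 0.0556), and also without Ctrl library 3 or KO library 2. Outside the floxed part, a peak 2940 bp downstream of the start site had 2.91 ± 0.87 in KO and 2.39 ± 0.53 in Ctrl (SD, n = 4 each) and was not called.

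Across the genome far more peaks lost signal in KO than gained it. By limma with Benjamini-Hochberg adjustment, 2917 peaks decreased (1.91% of all peaks) and 363 increased (0.238%) at an adjusted p below 0.05, so that 88.9% of the called peaks lost signal. The decreases were also the larger differences: the median was -1.74 among decreased peaks and 1.49 among increased peaks, beside 0.05 over all peaks. A decrease beyond 2 on the log2 scale was found at 867 called peaks and beyond 3 at 63, and an increase beyond 2 at 6. Decreased peaks went from a median rlog of 3.79 in Ctrl to 1.8 in KO. Increased peaks went from 1.78 to 3.34, and both pairs of medians come from the values that chose the peaks. Every KO library lay below every Ctrl library at 2399 of the 2917 decreased peaks, where 3.31% of all peaks had this order, and above every Ctrl library at 274 of the 363 increased peaks, where 2.21% of all peaks did. Without adjustment, 10224 peaks were lower and 7769 higher at p below 0.05. Fitted on the 8 libraries alone, the model called 1851 decreased and 57 increased peaks, and with the replicate number as a block 3996 and 911. The count of increased peaks was 214 without KO library 1, 229 without KO library 2, 183 without KO library 3 and 245 to 491 without any other single library, and that of decreased peaks was 2118 to 2806 without any 1 library.

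**Figure D1:**
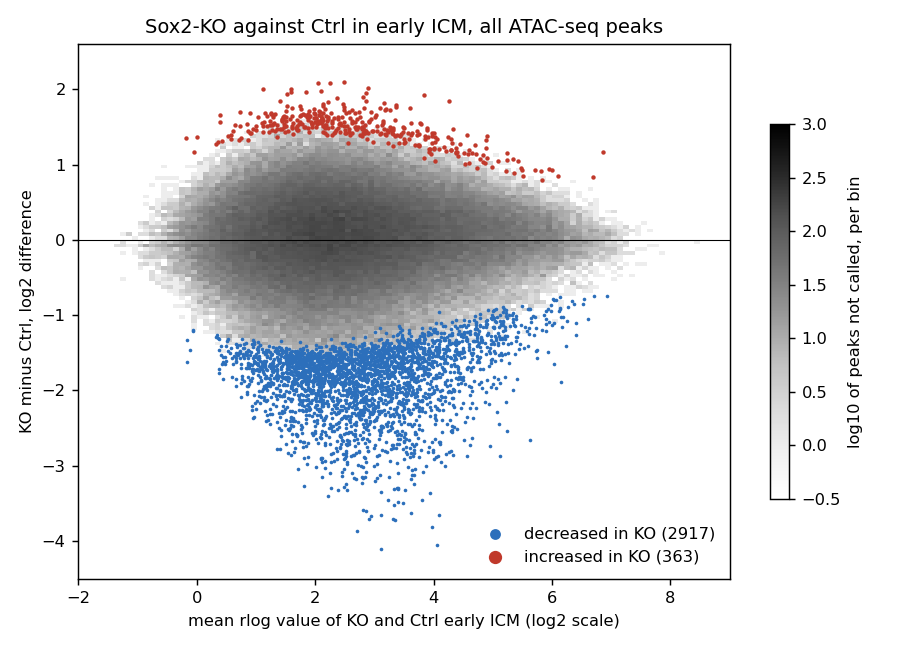
Log2 difference of KO against Ctrl early ICM (y) by the mean rlog value of both groups (x) for all peaks. Grey shows the number of peaks not called per bin on a log10 scale, and points are the 2917 decreased (blue) and 363 increased (red) peaks, the former reaching -4.10 and the latter 2.09.

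Among called peaks with every KO library below every Ctrl library, the 10 largest decreases ran from -4.10 to -3.65 on the log2 scale. The peak with the largest one lies 202655 bp upstream of the nearest protein-coding start site, that of Cntn5, a neuronal cell adhesion gene, inside a lincRNA gene; peaks are named throughout by the nearest protein-coding start site unless said otherwise. It had rlog values of 5.07, 5.56, 4.82 and 5.18 in Ctrl and 0.79, 0.94, 0.73 and 1.76 in KO. The log2 difference was -4.10 ± 0.45 (SE, adjusted p = 7.45e-11). A peak 5234 bp upstream of Cyp4a31, a fatty acid hydroxylase gene, had 5.52, 6.30, 6.15 and 5.56 in Ctrl and 1.77, 2.47, 1.35 and 2.67 in KO, a difference of -3.82 ± 0.42 (adjusted p = 6.68e-11). It was 1 of 3 peaks within 10 kb of the Cyp4a31 start sites, and all 3 decreased.

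The peak 5218 bp upstream of Pot1b, whose product binds the single-stranded ends of telomeres, had 4.61, 5.47, 4.90 and 5.72 in Ctrl and 1.62, 0.94, 1.55 and 1.75 in KO, a difference of -3.71 ± 0.42 (adjusted p = 1.38e-10). The peak 62291 bp downstream of the Cd34 start site, within a non-coding transcript, had 3.67, 4.82, 4.95 and 5.13 in Ctrl and 0.63, 0.37, 1.05 and 1.03 in KO, a difference of -3.87 (adjusted p = 6.19e-10). At all of these peaks the lack of overlap between KO and Ctrl was set by the way they were chosen. The other 6 of the 10 largest were nearest to Pik3c3 (-4.05), Mrpl42 (-3.73), Rapgef5 (-3.71, in an intron of Ptprn2), Olfr857 (-3.67), Syt9 (-3.66) and Pcdh19 (-3.65, in its own intron). All 10 stayed called in each alternative fit that included the peak. KO library 4 was the highest of the KO libraries at 7 of the 10, and at the Pik3c3 peak it had 3.84, beside 0.95 to 1.66 in the other three. Of the 10 peaks, 8 lie more than 10 kb from the named start site, so the gene name marks the place and not a target. Repeat-masked bases covered 84.0% of the window at Pik3c3 and Olfr857, 67.5% at Pot1b, 63.5% at Rapgef5, 56.5% at Cyp4a31 and 51.0% at Cntn5, and 0% at Cd34, Syt9 and Pcdh19.

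**Figure D2:**
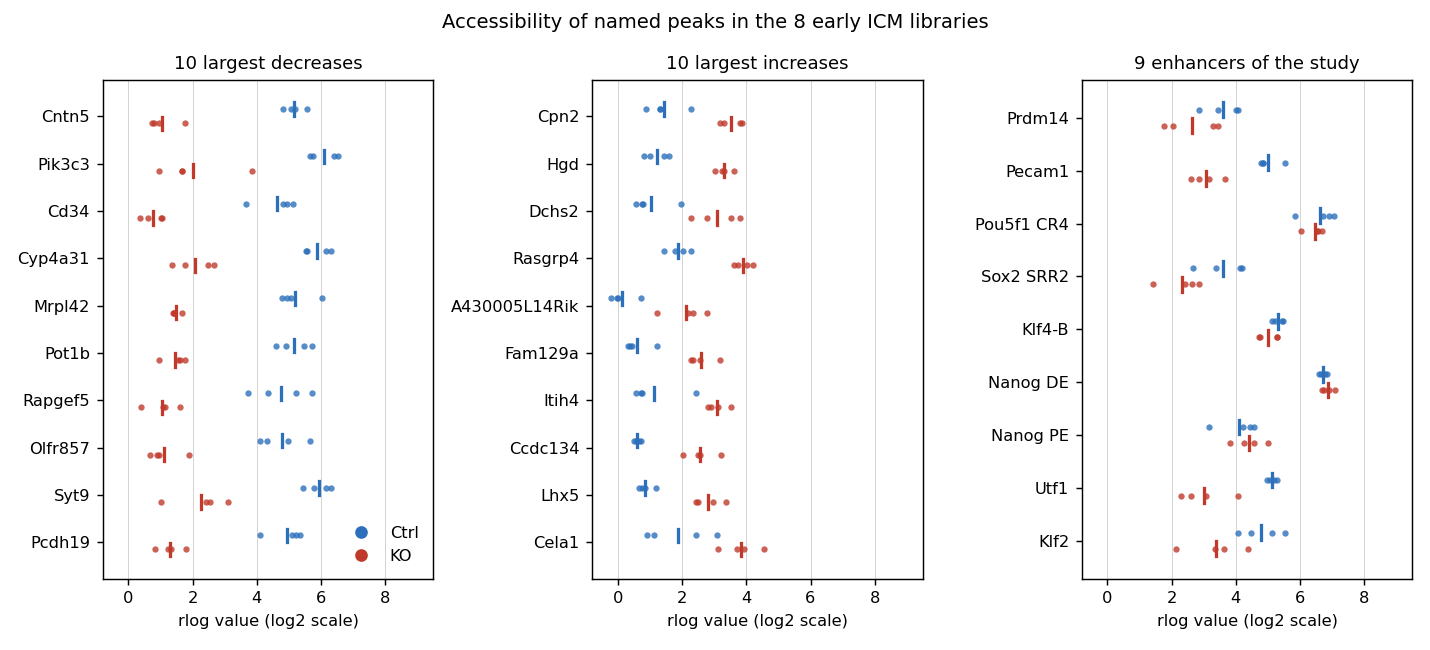
Rlog values (x, log2 scale) of the 4 Ctrl (blue) and 4 KO (red) early ICM libraries at the 10 largest decreases, the 10 largest increases and 9 enhancers, named by nearest gene or enhancer. Points are libraries and bars are group means; the groups are separate in the first 2 panels, by the way these peaks were chosen, while at the Nanog and Pou5f1 enhancers they overlap.

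Few start sites lost signal. Of the decreased peaks, 19 of 2917 lay within 100 bp of a start site, so that 99.3% were distal, beside 92.2% of all peaks. Of the increased peaks, 94.2% were distal. Decreased peaks were intergenic in 57.1% (all peaks 42.3%), and 26.6% had their nearest protein-coding start site more than 100 kb away (all peaks 10.4%). Repeat-masked bases covered more than 50% of the window in 40.2% of decreased peaks, 19.3% of increased peaks and 23.0% of all peaks. The median GC content was 45.0% in decreased, 50.5% in increased and 50.0% in all peaks.

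Start sites that lost signal included that of Etv1, an ETS-family transcription factor that acts downstream of FGF signalling. The peak 81 bp into Etv1 had 3.80, 3.08, 3.97 and 4.94 in Ctrl and 0.57, 0.77, 1.00 and 1.99 in KO. These start-site peaks were also chosen for no overlap between KO and Ctrl, and the Etv1 difference was -2.87 ± 0.43 (adjusted p = 1.1e-06). The next were Spire1 (an actin nucleator, -2.81), Ssr2 (a subunit of the translocon-associated complex, -2.27), Traf3ip2 (an adaptor of the IL-17 receptor, -2.0) and Pex5 (the import receptor of peroxisomes, -2.0). At Pex5 the start-site peak had 4.67, 5.74, 5.08 and 5.56 in Ctrl and 2.7, 3.34, 3.37 and 3.60 in KO.

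Many genes had a decreased peak nearby, but few had several. A decreased peak lay within 10 kb of a start site for 807 protein-coding genes, 88 of which had 2 or more and 19 of which had 3 or more, out of 17567 genes with any peak at this distance. Ccser2 had the most, 5 of its 22 peaks, with differences of -2.19 to -1.07. Terf1, whose product binds double-stranded telomeric repeats, had 4 of 10, and Agk, a mitochondrial lipid kinase, 4 of 9. Rbpj, the DNA-binding effector of Notch signalling, had 3 of 28, and F13b, a coagulation factor gene, 3 of 6. The Rbpj peak 980 bp inside the gene had 6.29, 6.38, 6.01 and 6.64 in Ctrl and 2.38, 4.64, 3.40 and 3.95 in KO, a difference of -2.73 ± 0.33 (adjusted p = 1.26e-09). The Ccser2 peak with the smallest p, 4532 bp inside the gene, has an OCT-SOX match with 1 mismatch and a difference of -2.19 (adjusted p = 0.000113).

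Some decreased peaks stood close to each other. Of the 6678 peaks with another decreased peak within 10 kb, 11.8% were decreased, beside 1.46% of the 145715 peaks with none. Chained at gaps of at most 10 kb, 791 of the decreased peaks (27.1%) fell into 348 groups, 76 of them with 3 or more. The largest group, at chr1:113958099-113970947 near Cntnap5a, held 6 peaks, all of which decreased, by -2.94 to -1.62. Groups of 5 out of 5 peaks lay near Gsdmc and Syt9, the latter with differences of -3.66 to -1.75.

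The enhancers that the study singled out, near 8 pluripotency genes, behaved in different ways. Of 9, 3 lost signal, 0 gained and 6 were not called, where 1.91% of all peaks were decreased. The Utf1 enhancer had 4.98, 5.27, 5.05 and 5.20 in Ctrl and 2.30, 2.61, 3.06 and 4.08 in KO. All 4 KO values were lower, with KO library 4 closest to Ctrl, and the difference was -2.12 ± 0.38 (SE, adjusted p = 6.28e-05).

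The Pecam1 enhancer, 9164 bp upstream of a start site of this cell adhesion gene of the EPI, had 4.85, 5.52, 4.86 and 4.78 in Ctrl and 2.84, 2.6, 3.16 and 3.66 in KO, a difference of -1.94 ± 0.42 (adjusted p = 0.00142). The Klf2 enhancer, 15427 bp downstream of the start site of this naive pluripotency factor, had 4.47, 5.52, 4.05 and 5.12 in Ctrl and 3.36, 4.38, 2.12 and 3.63 in KO. Its groups overlapped, and the difference of -1.42 ± 0.38 (adjusted p = 0.019) was not called without KO library 3 (-1.0, adjusted p = 0.257), Ctrl library 2 (-1.18, adjusted p = 0.145) or Ctrl library 4 (-1.31, adjusted p = 0.0782).

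The other 6 enhancers, those of Nanog, Pou5f1, Klf4, Prdm14 and Sox2, were not called, which does not show that they did not change. The distal enhancer of Nanog, the homeobox factor of the EPI, had 6.79, 6.59, 6.64 and 6.85 in Ctrl and 6.90, 7.08, 6.74 and 6.69 in KO, a difference of 0.14 ± 0.17. The Pou5f1 enhancer within conserved region 4 had a difference of -0.17 ± 0.21, the Klf4 enhancer -0.30 ± 0.33 and the proximal enhancer of Nanog 0.32 ± 0.33. The Prdm14 peak had -0.96 ± 0.45 (adjusted p = 0.374). The Sox2 enhancer SRR2, 3659 bp downstream of the Sox2 start site and outside the floxed part, had 2.65, 3.38, 4.18 and 4.14 in Ctrl and 2.62, 2.40, 1.41 and 2.86 in KO, a difference of -1.27 ± 0.43 that was not called (adjusted p = 0.118) but was without Ctrl library 1 (-1.58, adjusted p = 0.0441). The SRR2 peak has an OCT-SOX match with 1 mismatch and the Pou5f1 enhancer one with 2, as many as the Utf1 enhancer, so a close match was present in enhancers with and without a called loss.

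Gene lists were read over the peaks within 10 kb of a start site, of which 1.13% decreased and 0.203% increased over all protein-coding genes, with a median difference of 0.08. The LIF pathway keeps naive pluripotency through its receptor and STAT3. Near its 18 genes 4 of 118 peaks decreased (3.39%), 0 increased, and the median difference was 0.06. They lay at Il6st, Lifr, Ptpn11 and Socs2, 1 at each gene. A peak 1426 bp from Il6st, which encodes the shared subunit gp130, had 2.64, 4.12, 4.72 and 4.10 in Ctrl and 0.48, 1.39, 0.43 and 1.92 in KO, a difference of -2.84 ± 0.43 (adjusted p = 1.54e-06).

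A peak 8574 bp from Lifr, which encodes the ligand-specific subunit, had 3.80, 5.16, 3.81 and 4.58 in Ctrl and 2.08, 1.95, 1.72 and 1.51 in KO, a difference of -2.52 ± 0.40 (adjusted p = 3.62e-06). The phosphatase gene Ptpn11 had a peak with -1.98 ± 0.34 (adjusted p = 1.76e-05). The feedback inhibitor gene Socs2 had -1.23 at its start site (adjusted p = 0.0493), a call lost in 10 of 16 alternative fits and, without KO library 4, at -0.90 (adjusted p = 0.275). The genes of both LIF receptor subunits thus each lost a distal peak at which KO and Ctrl did not overlap.

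Of 252 peaks near 29 pluripotency factor genes, 7 decreased (2.78%) and 0 increased, with a median of -0.09. Each was at a different gene, the others being Spp1, Dppa5a and Fbxo15 beside Utf1, Pecam1, Sox2 and Dppa3. Dppa3 is a maternal-effect gene that protects DNA methylation in the zygote, and its peak 1749 bp from the start site has an OCT-SOX match with 1 mismatch. It had 4.67, 5.49, 3.92 and 5.09 in Ctrl and 2.35, 3.92, 2.48 and 3.87 in KO, values that touch, a difference of -1.64 ± 0.39 (adjusted p = 0.00576) and no call without KO library 1 (-1.37, adjusted p = 0.0714). Of 305 peaks near 31 genes of DNA methylation and chromatin regulation 4 decreased (1.31%), each at a different gene. A peak 6719 bp from Ezh2, the methyltransferase of Polycomb complex 2, had 4.03, 3.48, 4.19 and 3.93 in Ctrl and 2.22, 1.67, 1.37 and 1.93 in KO, a difference of -2.11 ± 0.43 (adjusted p = 0.000558). A peak 2468 bp from Uhrf1, which brings Dnmt1 to replicated DNA, had 3.46, 2.81, 2.87 and 3.67 in Ctrl and 1.47, 0.36, 1.71 and 0.97 in KO, a difference of -2.08 ± 0.45 (adjusted p = 0.00127), though the start site of Arrdc5 is nearer. The peaks of Kdm4c (-1.85) and Hdac1 (-1.52) lost their call without Ctrl library 4 (adjusted p = 0.0573) and without Ctrl library 3 (adjusted p = 0.208).

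The SOX family list had 4 of 76 peaks decreased (5.26%) and 0 increased, 1 of them in the floxed part at Sox2. A peak 6950 bp from Sox7, a PE factor, had 5.57, 5.01, 4.23 and 5.46 in Ctrl and 2.88, 3.65, 2.95 and 3.84 in KO. The groups were separate, with a difference of -1.74 ± 0.42 (adjusted p = 0.00745). Sox13 had -1.64 (adjusted p = 0.0131) and Sox21 -1.71 (adjusted p = 0.0164). Both calls were lost without KO library 2 (adjusted p = 0.0919 each). FGF4 signals from the EPI to the PE through ERK. Near genes of this pathway 2 of 217 peaks decreased (0.922%), at Fgf4 (-1.55 ± 0.42, adjusted p = 0.0224, not called without Ctrl library 4 with adjusted p = 0.105) and at the ERK inhibitor Spred2 (-1.94 ± 0.44, adjusted p = 0.00248). Embryos of both genotypes were grown with a MEK inhibitor, which acts on the ERK branch below the receptor, and the activity of the pathway was not measured here.

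In the Nodal and BMP list, 3 of 141 peaks decreased (2.13%), at the ligand gene Bmp4 (-1.72), the co-repressor gene Skil (-1.64) and the signal transducer gene Smad2 (-1.43), and 1 increased, near the receptor gene Bmpr1a (1.69). The Bmp4 peak, 1235 bp from a start site, had 4.61, 4.98, 4.76 and 5.74 in Ctrl and 3.13, 4.03, 1.88 and 4.19 in KO. In the WNT list, 2 of 156 peaks decreased, at the receptor gene Fzd5 (-1.42) and the effector gene Tcf7l2 (-1.37), and 1 increased, at the ligand gene Wnt7b (1.61). Most of these calls stood near the threshold: those of Skil and Smad2 were lost without KO library 1 (adjusted p = 0.0755 and 0.166), those of Bmp4, Wnt7b and Tcf7l2 without KO library 3 (adjusted p = 0.0802, 0.2 and 0.285), that of Bmpr1a without KO library 4 (adjusted p = 0.121) and that of Fzd5 without Ctrl library 4 (adjusted p = 0.0957).

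Few peaks near genes of the lineages outside the EPI were called. Of 204 peaks near 26 TE genes 0 decreased and 1 increased, at the keratin gene Krt8 (1.09 ± 0.32, adjusted p = 0.0457, not called without KO library 3 with adjusted p = 0.169), with a median of 0.16, beside the higher TE marker mean in KO given above. Of 139 peaks near 20 PE genes 1 decreased, at Sox7, and 1 increased, at the hepatic and endodermal factor gene Hnf4a (1.05 ± 0.28, adjusted p = 0.0231, not called without Ctrl library 4 with adjusted p = 0.129). Near the Hippo pathway and TEAD genes 1 of 209 peaks increased, 2647 bp from the kinase activator gene Mob1a but inside Mthfd2 (1.61, adjusted p = 0.0298, not called without Ctrl library 4 with adjusted p = 0.107), and 0 decreased. The housekeeping list, meant as a reference, held 1 decreased and 1 increased peak among 109 (0.917% each), the latter at Pgk1. Near the formative and primed genes 2 of 103 peaks decreased (1.94%), 1 of them at Utf1, and 0 increased.

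All 12 lists were also read over the peaks within 50 kb of a start site, of which 1.44% decreased and 0.242% increased over all protein-coding genes. The share decreased was above this in the lists of the LIF pathway (16 of 409, 3.91%), the SOX family (8 of 219, 3.65%) and the formative and primed state (10 of 285, 3.51%). It was above it by little for pluripotency factors (13 of 658, 1.98%), WNT (10 of 535, 1.87%) and chromatin regulators (15 of 843, 1.78%). It was below it in the PE (0.966%), Nodal and BMP (4 of 487, 0.821%), FGF (0.64%), Hippo (0.617%), TE (3 of 554, 0.542%) and housekeeping (0.244%) lists. The Nodal and BMP list was thus above the share of all genes at 10 kb and below it at 50 kb, and near the TE genes 4 of the 554 peaks increased (0.722%).

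The increased peak at Pgk1, which encodes a glycolytic enzyme, stands apart from the others. It lies 159 bp upstream of the start site on the X chromosome and had 6.11, 6.25, 6.82 and 5.93 in Ctrl and 7.01, 7.07, 9.07 and 6.65 in KO. KO library 3 was far above the rest, and without it the difference of 1.17 ± 0.25 (adjusted p = 0.000877) became 0.63 (adjusted p = 0.201). The peak also rose in Sox2-KO late ICM (0.87, adjusted p = 0.0132) and in Pou5f1-KO early ICM (1.01, adjusted p = 0.00248). Both mutant alleles carry a reporter behind a mouse PGK promoter, so reads from the transgene and from the Pgk1 locus cannot be told apart.

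The largest increase in KO lay 41397 bp downstream of the start site of Cpn2, a subunit of carboxypeptidase N, with 1.30, 2.28, 1.30 and 0.89 in Ctrl and 3.85, 3.82, 3.29 and 3.18 in KO. The lowest KO value was above the highest Ctrl value, and the difference was 2.09 ± 0.43 (adjusted p = 0.000629). A peak in an intron of Rasgrp4, a Ras activator gene, and 63 bp from an antisense start site had 2.27, 1.45, 2.02 and 1.79 in Ctrl and 4.21, 3.62, 3.73 and 4.03 in KO, a difference of 2.01 ± 0.40 (adjusted p = 0.000309). The peak in an intron of Mei1 and 7113 bp upstream of Ccdc134 had 0.71, 0.65, 0.49 and 0.56 in Ctrl and 3.20, 2.50, 2.55 and 2.03 in KO.

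The other 7 of the 10 largest increases, from 2.08 down to 1.94, were nearest to Hgd, Dchs2, A430005L14Rik, Fam129a, Itih4, Lhx5 and Cela1, genes of tyrosine breakdown, cell adhesion, serum proteins, neural patterning and digestion among others. At all 10 of the largest increases the call held in each alternative fit that included the peak. Of the peaks at start sites the next were those of Obsl1 (1.88), Pithd1 (1.72), the lincRNA Gm49729 far from Basp1 (1.64) and the antisense RNA Gm10371 near Samd4 (1.53). The Obsl1 call was lost without KO library 1 (adjusted p = 0.0567), that of Pithd1 without Ctrl library 4 (adjusted p = 0.0708), that near Basp1 without KO library 3 (adjusted p = 0.132) and that near Samd4 without KO library 4 (adjusted p = 0.149). An increased peak lay within 10 kb of a start site for 175 genes, and only Scd2, a fatty acid desaturase gene, had 2 (1.39 and 1.19). The increase of 1.39 was not called without Ctrl library 3 (1.07, adjusted p = 0.222).

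The words found in the sequence differed between the losing sites and the rest. An OCT-SOX word with at most 3 mismatches was found in 38.7% of decreased peaks (1130 of 2917), 2.20% of increased peaks (8 of 363) and 5.03% of all peaks. With at most 2 mismatches the shares were 12.3%, 0% and 1.02%. The share of peaks that decreased was 35.8% where the best match had 1 mismatch (73 of 204), 21.2% with 2, 12.7% with 3, 2.96% with 4, 1.09% with 5 and 0.51% with 6 or more. Of the 11 peaks with a perfect match 0 were called in early ICM, at a median difference of -0.91, while 72.7% of them decreased in Sox2-KO late ICM. The match lay within 25 bp of the peak centre in 40.7% of decreased peaks with a match and in 31.4% of all peaks with one.

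The larger the decrease, the more often the word was present. It was found in 60% of the 100 largest decreases, 49.5% of the next 400, 49.2% of the 500 after these, 40.7% of the following 1000 and 23.9% of the last 917. A SOX word in a peak with no OCT-SOX word was found in 28.0% of the first 100 and 48.5% of the last 917, beside 29.0% of peaks not called. These shares are of all peaks in a bin, so they are held down where the OCT-SOX word is frequent. They do not show that SOX words were rarer among the largest decreases. Counted with or without an OCT-SOX word, a SOX word was in 77.0% of the first 100 and 62.7% of the last 917. A SOX word of any kind was found in 65.6% of decreased, 20.7% of increased and 31.7% of all peaks, and an OCT word in 38.1%, 16.3% and 15.7%. These words overlap the OCT-SOX word and were counted wherever they stood. No OCT-SOX, OCT or SOX word was found in 15.5% of decreased peaks, 67.2% of increased peaks and 57.2% of all peaks.

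Words of other factors were searched on both strands in the same windows. The ESRRB word TCAAGGTCA, with at most 1 mismatch, was found in 21.4% of decreased and 15.8% of all peaks, and the GATA word AGATAA in 22.2% and 17.5%. The KLF word GGGNGTGG was rarer in decreased peaks, with 10.4% against 20.6% of all peaks and 28.1% of increased peaks. Increased peaks had the EOMES word AGGTGTGA, with at most 1 mismatch, in 38.6% (all peaks 28.4%, decreased peaks 20.9%) and the GATA word in 27.8%. The TEAD word GGAATG was found in 18.6% of decreased, 17.6% of increased and 18.9% of all peaks, and the TFAP2 word GCCNNNGGC in 6.55%, 8.26% and 11%. Decreased peaks were less rich in GC than the rest, as given above, and the shares were not adjusted for it.

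**Figure D3:**
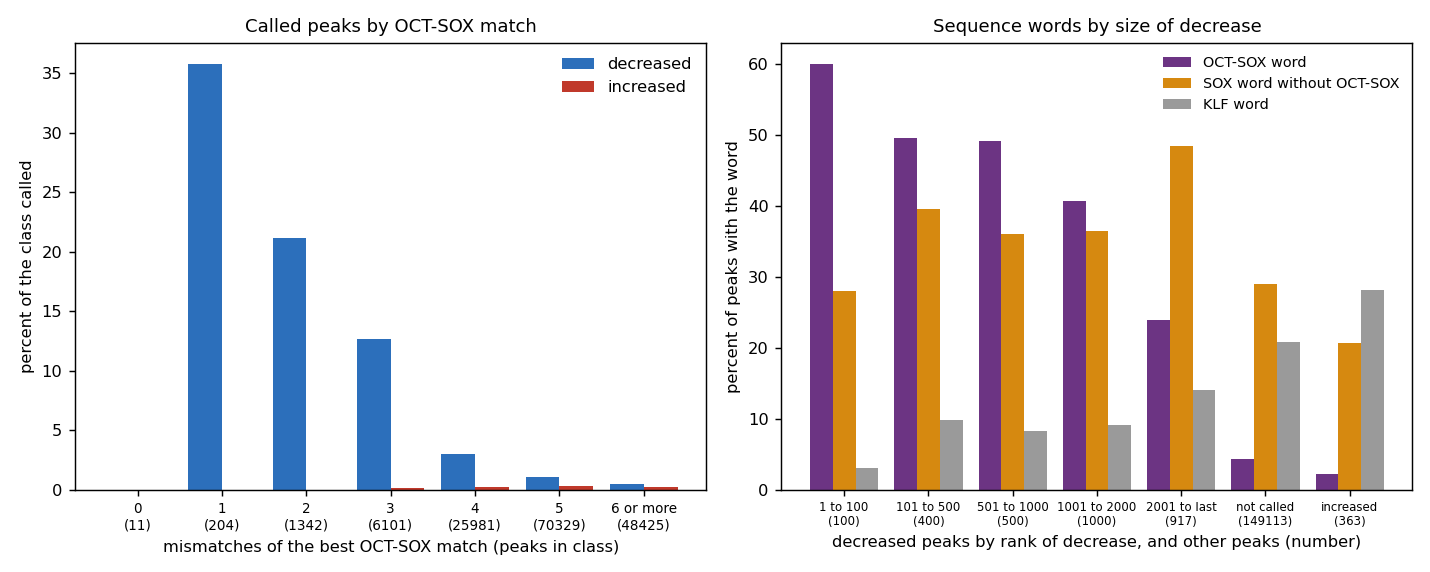
Left, percent of peaks decreased (blue) or increased (red) in KO early ICM by the number of mismatches in the best OCT-SOX match, with the number of peaks in brackets. Right, percent of peaks with an OCT-SOX word, a SOX word without an OCT-SOX word, or a KLF word by rank of decrease. The share decreased falls from 35.8% at 1 mismatch to 0.51% at 6 or more, and the OCT-SOX share falls from 60% in the first 100 peaks to 23.9% in the last 917.

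The same sites were then read in 2 other comparisons, whose libraries did not enter the early difference but, in the fit of all 44 libraries, entered the variance behind each call. In the Sox2 line at late ICM (E4.5, 4 KO and 4 Ctrl libraries), 4.88% of all peaks decreased and 2.71% increased. Of the 2917 early decreased peaks, 2243 also decreased there (76.9% of them, and 30.1% of the 7440 late decreased peaks) and 0 increased. Their median late difference was -1.9, and 98.4% were below 0, beside 49.0% of all peaks. Of the 363 early increased peaks only 58 increased late (16.0% of them, and 1.40% of the 4129 late increased peaks), 0 decreased, and the median late difference was 0.52. The share of early gains called late was above the 2.71% of all peaks, and the test of the late minus the early effect called 1 of the 363, near A430005L14Rik, as more negative late.

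**Figure D4:**
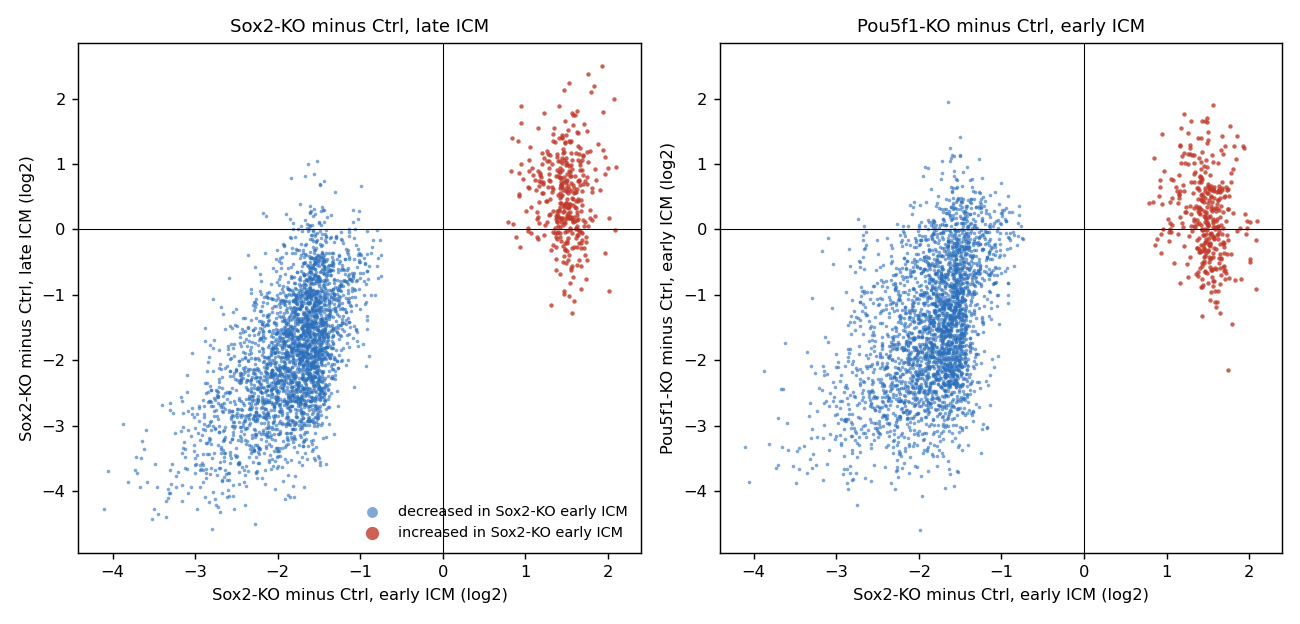
Log2 difference in Sox2-KO late ICM (left, y) and in Pou5f1-KO early ICM (right, y) against that in Sox2-KO early ICM (x) for the 3280 called peaks, decreased in blue and increased in red. Of the decreased peaks 98.4% lie below 0 on the left and 92.4% on the right, while the increased peaks spread around medians of 0.52 and 0.16; the gap on the x axis is set by the calls.

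The change of the effect between the stages was tested directly. The test of the late minus the early effect called 25 peaks as more negative (0.0164%) and 4 as more positive (0.00262%), where 6768 and 5743 had an unadjusted p below 0.05. The counts depended on the fit. They were 4 and 0 with only the compared libraries, 115 and 85 with the replicate number as a block, 14 and 5 with each library centred on its median, and 7 to 38 and 0 to 14 when 1 library was left out. Few calls do not show that the effects were alike. None of the 25 was among the early decreased peaks, and of the 4, Cap1 was. The peak 1165 bp upstream of Fbxw10, in an intron of Trim16, had 0.90 ± 0.78 in Ctrl and 0.71 ± 0.68 in KO at early ICM (SD, n = 4 each), and 4.01 ± 0.68 and 0.20 ± 0.30 at late ICM, so that a site low in both early groups was high in late Ctrl and not in late KO (late minus early effect -3.62, adjusted p = 0.00388). The peak near Gm438 had the same order, with 0.47 and 0.36 early and 4.0 and 0.45 late (-3.43, adjusted p = 0.0128).

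At the peak near Vps13d, KO had 2.36 and Ctrl 1.04 early, a difference that was not called (1.33, adjusted p = 0.14), and 0.39 and 2.50 late, with a late minus early effect of -3.43 (adjusted p = 0.0128). The 3 most positive differences were at Anxa3 (3.20), Sgpp2 (2.88) and Cap1 (2.18), the last encoding a protein that recycles actin monomers. The Cap1 peak had 5.45, 5.13, 5.53 and 4.91 in early Ctrl and 4.87, 3.48, 4.19 and 2.51 in early KO, and 4.21 ± 0.57 in late Ctrl and 4.89 ± 0.27 in late KO (adjusted p of the difference between stages = 0.0168).

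Most sites that lost signal in KO had more signal in Ctrl early ICM than in Ctrl morulae. The morulae were collected at E2.75 (early) and E3.25 (late) without the MEK inhibitor and culture that the ICMs had, so stage and treatment cannot be told apart here. In Ctrl embryos of the Pou5f1 line, which were maternal Pou5f1-KO, 16.5% of all peaks were higher in early ICM than in the early morula. In these embryos 14.6% of all peaks were lower. Among the 2917 decreased peaks, 1789 (61.3%) were higher and 30 lower, with a median difference of 1.37 beside 0.13 over all peaks. A peak had to be open in Sox2 Ctrl early ICM to be called decreased (median rlog 3.79, beside 2.46 over all peaks). All peaks are therefore not a matched reference for these shares. The mean rlog over the decreased peaks was 2.46 ± 0.06 in Ctrl morulae and 2.04 ± 0.15 in Ctrl late morulae (SD over libraries, n = 3), then 3.82 ± 0.25 in Ctrl early ICM of the Pou5f1 line and 3.79 ± 0.17 in that of the Sox2 line (n = 4). In Sox2-KO it was 1.95 ± 0.16 at early ICM, the values that chose these peaks, and 2.02 ± 0.13 at late ICM, beside 1.87 to 2.15 over the Ctrl late morulae. Among the 363 increased peaks, 98 (27%) were lower in early ICM than in the morula and 20 higher. Their mean rlog was 2.85 ± 0.10 in Ctrl morulae and 3.03 ± 0.02 in Ctrl late morulae, 2.48 ± 0.07 in Pou5f1 Ctrl early ICM, and 1.97 ± 0.09 in Sox2 Ctrl and 3.44 ± 0.03 in Sox2-KO early ICM. The low values of the Sox2 Ctrl libraries (1.87 to 2.08, beside 2.41 to 2.54 in Pou5f1 Ctrl) were part of what chose these peaks.

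**Figure D5:**
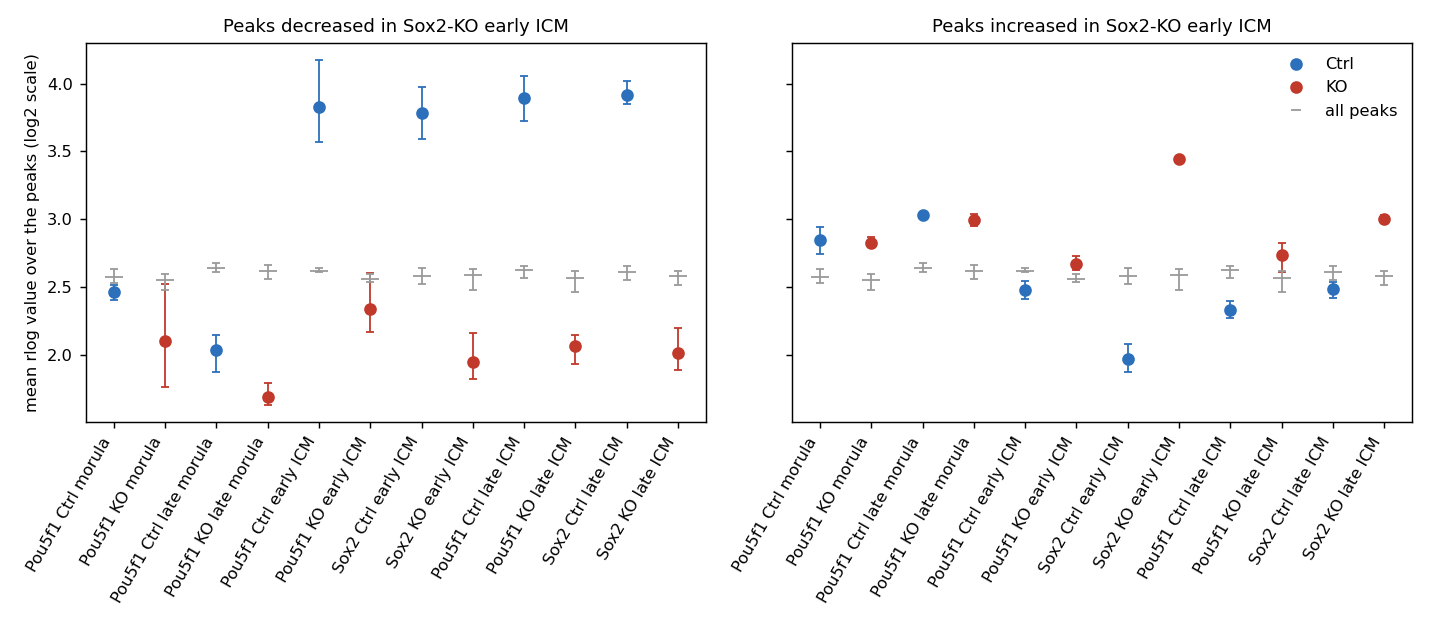
Mean rlog value (y, log2 scale) over the peaks decreased (left) or increased (right) in Sox2-KO early ICM, in each of the 12 conditions of the series. Points are means over libraries, bars run from the lowest to the highest library (n = 3 for morulae, 4 for ICM) and grey marks are all peaks; the decreased peaks stand at 3.79 to 3.92 in every Ctrl ICM and at 1.95 to 2.34 in every KO ICM, the early Sox2 pair having chosen them.

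The Pou5f1-KO early ICM (4 KO and 4 Ctrl libraries of another line, in the labels Oct4, with a deletion of Pou5f1 and an mKO2 reporter) lost many of the same sites. In it 5.43% of all peaks decreased and 2.8% increased. Of the 2917 peaks decreased in Sox2-KO, 1753 decreased (60.1% of them, and 21.2% of the 8273), 5 increased, and the median was -1.52. Of the 363 increased peaks 38 increased and 3 decreased, with a median of 0.16. An OCT-SOX word was found in 52.4% of the 1551 peaks that decreased in early Sox2-KO, late Sox2-KO and early Pou5f1-KO, and in 20.1% of the 1159 that decreased in early Sox2-KO and were not called in early Pou5f1-KO.

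Where the mutants differed was tested directly. The Pou5f1-KO effect was more negative than the Sox2-KO effect at 567 peaks (0.372%) and more positive at 469 (0.308%). With each library centred on its median the counts were 461 and 653, so which direction is more frequent depends on the scaling, and with the replicate number as a block they were 1476 and 1287. Among the peaks decreased in Sox2-KO, 91 had a more positive Pou5f1-KO effect. At these the median Pou5f1-KO difference was 0.23, and 7.69% had an OCT-SOX word. A more negative Pou5f1-KO effect was found at 9 of the decreased peaks, with a median Pou5f1-KO difference of -3.71 and an OCT-SOX word in 55.6%. The 91 included the start-site peak of Pex5 (-2.0 in Sox2-KO and 0.07 in Pou5f1-KO, difference 2.07, adjusted p = 0.00882) and the Ptpn11 peak (-1.98 and -0.16, difference 1.82, adjusted p = 0.0379). The Lifr peak had -2.52 in Sox2-KO and -0.62 in Pou5f1-KO, a difference of 1.9 that missed the threshold (adjusted p = 0.0844), whereas the Il6st peak had -2.84 and -3.72.

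The largest such differences were at peaks near Tbx15, Jarid2 and Macrod2 in one direction and Ptprd, Plk2 and Galnt15 in the other. At the peak in an intron of Tbx15, a T-box factor gene, Sox2 Ctrl had 5.48 and Sox2-KO 5.66, while Pou5f1 Ctrl had 5.47 and Pou5f1-KO 1.54 (difference -4.11, adjusted p = 2.19e-08). The peak 60595 bp upstream of Jarid2, which encodes a cofactor of Polycomb complex 2, moved in opposite directions, from 2.73 to 4.48 in Sox2-KO (adjusted p = 0.0129, not called without Ctrl library 4 with adjusted p = 0.134) and from 3.61 to 1.47 in Pou5f1-KO. The peak near Plk2 went from 2.76 to 1.12 in Sox2-KO (adjusted p = 0.0261, not called without KO library 1 with adjusted p = 0.175) and from 1.17 to 3.12 in Pou5f1-KO.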

How the data were processed

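ATAC-seq was done on pooled early mouse embryos, and 44 libraries in 12 conditions were used here. The authors removed adapters with SeqPurge, aligned reads to mm10 with Bowtie2, removed duplicates with Picard, kept unique alignments with a mapping quality of at least 30, shifted Tn5 ends and called peaks with MACS2 on each library. Summits found in at least 2 replicates were merged to windows of 200 bp and the authors turned read counts into log2 values by the rlog of DESeq2 and deposited these values. Counts were not used here, so that read depth and its sampling error are unknown, and shrinkage lowers the differences of weak peaks.

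Group means of the deposited columns were checked against the deposited mean columns and differed by at most 4.3e-08. A linear model with a mean for each of the 12 conditions was fitted to all 152393 peaks and all 44 libraries with limma 3.58.1 (lmFit, eBayes with a variance trend; R 4.3.3; 32 residual degrees of freedom, median residual SD 0.589). Tests were two-sided, and p-values were adjusted over all peaks by Benjamini-Hochberg, with a call at 0.05. The model was tested on simulated data. Words and annotation were handled in Python 3.11.15 with GENCODE vM21, while the study used vM23. A start site was proximal within 100 bp, and genes were given the peaks within 10 kb of a start site.

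Peaks were named by rule: those within 2 kb of Sox2, the 10 largest calls each way with no overlap of groups and the 5 largest at start sites, the genes with the most called peaks, the 9 listed enhancers, up to 4 genes per list and the 3 largest calls each way per interaction test. The members and lists were chosen with earlier results of these data known. Alternatives were the 8 libraries alone, a filter on the median rlog, quantile normalization, median centring, no variance trend, a difference of at least 1, a replicate block and leaving out each library. Leaving out X-linked peaks and both libraries numbered 4 were chosen after seeing the data. Some results that the naming rule and the lists give are not reported here.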

Additional observations from a re-analysis of the deposited data

Results flagged for a closer look

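At 7 of 168 groups of 4 libraries, over 84 named peaks, 1 library stood far from the other three, and chance gives about 1 in 20. In Ctrl these were library 2 at the Sox2 peak 2940 bp downstream (1.60) and at the Pecam1 enhancer (5.52), library 4 at the Dchs2 (1.97) and Itih4 (2.43) peaks and library 1 at the Fam129a peak (1.22). In KO these were library 3 at the Mrpl42 peak (1.68) and library 4 at the Agk peak (1.8).

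The Pou5f1-KO effect in early ICM differed from the Sox2-KO effect by limma at an adjusted p below 0.05 at 16 named peaks. It was more positive at Pex5 (2.07), F13b (1.68), Ptpn11 (1.82), Anxa3 (2.30), Cap1 (1.91), Ptprd (3.83), Plk2 (3.59) and Galnt15 (3.55). It was more negative at Dchs2 (-2.99), A430005L14Rik (-2.46), Fam129a (-2.50), Pithd1 (-2.38), Basp1 (-2.91), Tbx15 (-4.11), Jarid2 (-3.89) and Macrod2 (-3.75).

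The late Sox2-KO effect differed from the early one at 7 named peaks. It was more negative at A430005L14Rik (-2.94), Fbxw10 (-3.62), Gm438 (-3.43) and Vps13d (-3.43), and more positive at Anxa3 (3.20), Sgpp2 (2.88) and Cap1 (2.18). The cause of these differences was not tested.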

How the results depend on the processing

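The decreases kept their excess over the increases in each alternative listed here. Decreased and increased peaks numbered 1851 and 57 when only the 8 libraries were fitted, 1599 and 216 in the more open 76197 peaks by median rlog (fewer peaks tested), 2059 and 199 without both libraries numbered 4, and 3996 and 911 with the replicate number as a block. Leaving out 1 library gave 2118 to 2806 and 183 to 491. Quantile normalization, median centring, no variance trend, a difference of at least 1 and leaving out X-linked peaks kept both counts within 1.5 times the main ones. Same-numbered Ctrl and KO libraries deviated together at correlations of 0.221, 0.086, 0.104 and 0.293, and each Ctrl library correlated best with the KO library of its own number, while KO library 3 correlated best with Ctrl library 1 (0.113). In the Pou5f1 line the correlations were 0.121 to 0.162, each the best of its library. Pairing was taken as shown only where every pair was over 0.1, which held in the Pou5f1 line and not, by 1 pair, in the Sox2 line, so whether the Sox2 libraries were paired is not known. The main fit had no block in either line, so its Pou5f1-KO calls and its tests of Pou5f1-KO against Sox2-KO effects did not use this pairing.

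The tests of differences between effects depended more on the setting. More negative and more positive late effects numbered 4 and 0 with only the compared libraries, 0 and 0 in the more open 76197 peaks (where 2643 and 3276 had an unadjusted p below 0.05 in limma), 13 and 3 by quantile normalization, 14 and 5 by centring, 41 and 6 with no variance trend, 115 and 85 with the replicate block, and 7 to 38 and 0 to 14 without 1 library, the lowest without late Ctrl library 1 and the highest without late Ctrl library 3 and early KO library 2. More negative and more positive Pou5f1-KO effects numbered 247 and 165 with only the compared libraries, 467 and 559 by quantile normalization, 1476 and 1287 with the replicate block, and 326 to 695 and 222 to 577 without 1 library, the lowest without Pou5f1 Ctrl library 2.

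Of 84 named peaks, 67 were called, and 40 of these were called under every alternative that included them. The filter on the median rlog and the fit without X-linked peaks left some of the named peaks out. Reversals were found at 4 peaks with early differences near 0 that were not called. Without 1 library the early difference ran from -0.49 to 0.15 at Fbxw10 (0.06 without KO library 2), from -0.29 to 0.19 at Gm438, from -0.054 to 0.32 at Tbx15 and from -0.27 to 0.16 at Macrod2. Without both libraries numbered 4 it was 0.18 at Gm438 and 0.14 at Macrod2. The cause of these changes was not tested. Depth is unknown, so no limit from counting error can be given.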
